A study of Mus musculus with 15 samples.

Results

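In pancreatic islets, most H3K27Ac regions at gene starts shared by all 3 diets were compact blocks without the repressive mark H3K27Me3 (7279 of 8141). H3K27Ac is acetylation of lysine 27 on histone H3, and these 7279 of 25452 joined H3K27Ac regions are described. They were selected on the deposited peaks themselves. H3K27Ac peaks of the 3 diets that shared at least 1 bp on chromosomes 1 to 19 were joined, and a region was kept when it held a peak in every diet, spanned under 3000 bp, came within 1000 bp of the start of a protein-coding gene and touched no peak of H3K27Me3, the mark of Polycomb repression. The start site was the 5′ end of the gene record in GENCODE release 21 on GRCm38. Of the 25452 regions, 12950 were shared by the 3 diets and 8141 of these lay at a start site. Among the 8141, 462 spanned at least 3000 bp without H3K27Me3 and 400 overlapped H3K27Me3. The 7279 regions that remained are called ordinary-width promoters. Their presence in all diets, their width and their place at a start were fixed by this choice and are no finding.

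The study mapped both marks in pooled islets of male CBA mice on a regular diet (RD), a high-fat diet (HFD) or the high-fat diet with O304 added (HFD-O304). O304 is described by its authors as an activator of AMPK, the kinase that responds to low cellular energy. The controls on RD received neither the fat-rich chow nor the compound, and no genetic alteration is given for any group. Islets are small endocrine organs in which insulin-producing beta cells predominate, and the chromatin was taken from whole islets. A stronger peak in more cells and a stronger peak in each cell cannot be told apart in such material.

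H3K27Ac is placed by the acetyltransferases p300 and CBP on nucleosomes beside active promoters and enhancers. Promoters of mammalian genes fall into 2 broad types. CpG-island promoters are rich in the dinucleotide CG, often lie at genes that every cell needs and are bound by factors of the Sp, ETS, NRF1 and YY1 families, whereas promoters poor in CpG are often tissue-restricted and more often hold a TATA box. Transcription from many CpG islands starts in both directions, and a pair of genes may share 1 island head to head. Wide acetylated domains are known for genes of cell identity.

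Each mark and diet had 1 deposited peak list, called on 2 merged replicates. The spread between replicates is therefore unknown, and no difference between diets could be tested. MACS kept 83773042 H3K27Ac fragments for RD, 95218072 for HFD and 84694188 for HFD-O304. The lowest fold enrichment listed was 2.28, 2.17 and 2.25 in that order, so the list with the most fragments reached down to the weakest peaks. Fold enrichment is the mean coverage of a peak divided by a uniform genome background, each with 1 added, as deposited. Each list has its own peak boundaries, so a ratio between diets can compare stretches of different length. Intervals on shares are 95% Wilson intervals over start sites or regions, cover counting error only and treat neighbouring sites as independent.

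As examples of the sequence at these starts, 6 promoters that hold known motifs are printed. The ordinary-width promoters of highest mean fold enrichment that have 1 start and hold a given motif were taken in turn for 8 motifs of known promoter factors. They were picked for these motifs, and the shares over all promoters follow further on. The 150 bases before the start are printed 5′ to 3′ in the direction of transcription, and capitals mark every match to those 8 motifs.
Slc25a3, chr10:91124060-91124209, minus strand: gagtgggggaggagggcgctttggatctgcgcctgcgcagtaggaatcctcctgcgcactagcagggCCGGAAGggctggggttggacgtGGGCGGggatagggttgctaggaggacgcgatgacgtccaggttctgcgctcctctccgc
Slc35e2, chr4:155601266-155601415, plus strand: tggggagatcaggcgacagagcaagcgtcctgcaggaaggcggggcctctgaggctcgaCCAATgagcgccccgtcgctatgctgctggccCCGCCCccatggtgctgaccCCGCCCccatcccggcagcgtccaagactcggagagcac
Ythdf3, chr3:16183062-16183211, plus strand: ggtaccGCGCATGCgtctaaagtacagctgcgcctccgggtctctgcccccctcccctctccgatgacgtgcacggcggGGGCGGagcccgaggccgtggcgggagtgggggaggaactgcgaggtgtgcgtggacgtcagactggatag
Tra2a, chr6:49264034-49264183, minus strand: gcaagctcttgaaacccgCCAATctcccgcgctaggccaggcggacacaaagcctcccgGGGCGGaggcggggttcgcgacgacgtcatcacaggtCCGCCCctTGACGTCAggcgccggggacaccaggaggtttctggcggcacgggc
Hbp1, chr12:31950536-31950685, minus strand: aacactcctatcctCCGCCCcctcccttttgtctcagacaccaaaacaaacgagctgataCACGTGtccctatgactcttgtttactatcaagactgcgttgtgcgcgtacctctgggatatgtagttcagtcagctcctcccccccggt
Smndc1, chr19:53390579-53390728, minus strand: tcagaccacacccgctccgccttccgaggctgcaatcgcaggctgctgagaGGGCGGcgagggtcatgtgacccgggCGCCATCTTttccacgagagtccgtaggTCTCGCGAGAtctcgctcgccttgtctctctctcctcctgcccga

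All 6 stretches held a GC box, the letters GGGCGG on either strand that Sp factors bind. That of Slc25a3, which encodes the phosphate carrier of the inner mitochondrial membrane, also held an ETS site (CCGGAAG). Slc35e2, a member of a nucleotide-sugar transporter family, had a CCAAT box and a pair of GC boxes. Ythdf3 encodes a reader of m6A on RNA, and its promoter held an NRF1 site (GCATGCGC). Tra2a encodes a splicing regulator and had a complete cAMP response element (TGACGTCA) beside a CCAAT box and GC boxes. Hbp1, a transcriptional repressor of cell cycle genes, held the E-box CACGTG. At Smndc1, a splicing factor, a YY1 site (AAGATGGCG) stood beside a ZBTB33 site (CTCGCGAGA), which reads on both strands from overlapping letters. Each stretch lay inside the H3K27Ac region of its gene, and the fold enrichment of the 6 regions lay between 4.37 at Ythdf3 in RD and 6.61 at Slc25a3 in HFD.

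The 8369 genes with an ordinary-width promoter at their start were 40.2% of the 20807 protein-coding genes of these chromosomes. A further 547 genes had a shared promoter of at least 3000 bp, 466 had one with both marks, 2003 had H3K27Ac at the start in only some diets and 9422 had none. Which genes fell into the ordinary-width class differed widely between functional groups, and the plot of gene lists gives the share in each.

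Genes of protein synthesis stood far above the overall share. Of 74 ribosomal protein genes, 64 had an ordinary-width promoter (86.5%, 95% interval 76.9 to 92.5). Translation initiation factors had one at 37 of 42 genes and aminoacyl-tRNA synthetases, which charge tRNAs, at 17 of 20. All 7 subunits of the TRiC chaperonin, which folds actin and tubulin, had one. The coats of COPI and COPII vesicles and the translocon, which move secreted proteins through the endoplasmic reticulum (ER) and Golgi, had one at 25 of 28 genes. Subunits of the proteasome, the protease of ubiquitinated proteins, followed with 32 of 38.

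Genes of RNA synthesis and mitochondria were likewise mostly in this class. RNA polymerase II and the general transcription factors had an ordinary-width promoter at 32 of 39 genes and spliceosome proteins at 43 of 53. Respiratory chain subunits had one at 60 of 78 genes, mitochondrial ribosomal proteins at 56 of 78 and the mitochondrial import machinery at 18 of 24. Subunits of the V-ATPase, the proton pump of acidic compartments and of secretory granules, had one at 14 of 22, and the other 8 had no H3K27Ac peak at the start.

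Few of these genes had a wide promoter, but the same held over all protein-coding genes (547 of 20807, 2.63%). Across the ribosomal proteins 5 of 74 did, and among the proteasome, tRNA synthetase, TRiC, initiation factor, polymerase and V-ATPase lists none did. Zfp zinc finger genes, a large family of mostly repressive DNA-binding proteins, had an ordinary-width promoter at 193 of 358 genes (53.9%, 48.7 to 59.0). A further 69 Zfp genes carried H3K27Ac in only some diets. Replication-dependent histone genes had one at 32 of 65, and 19 others of that list overlapped H3K27Me3.

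**Figure D1:**
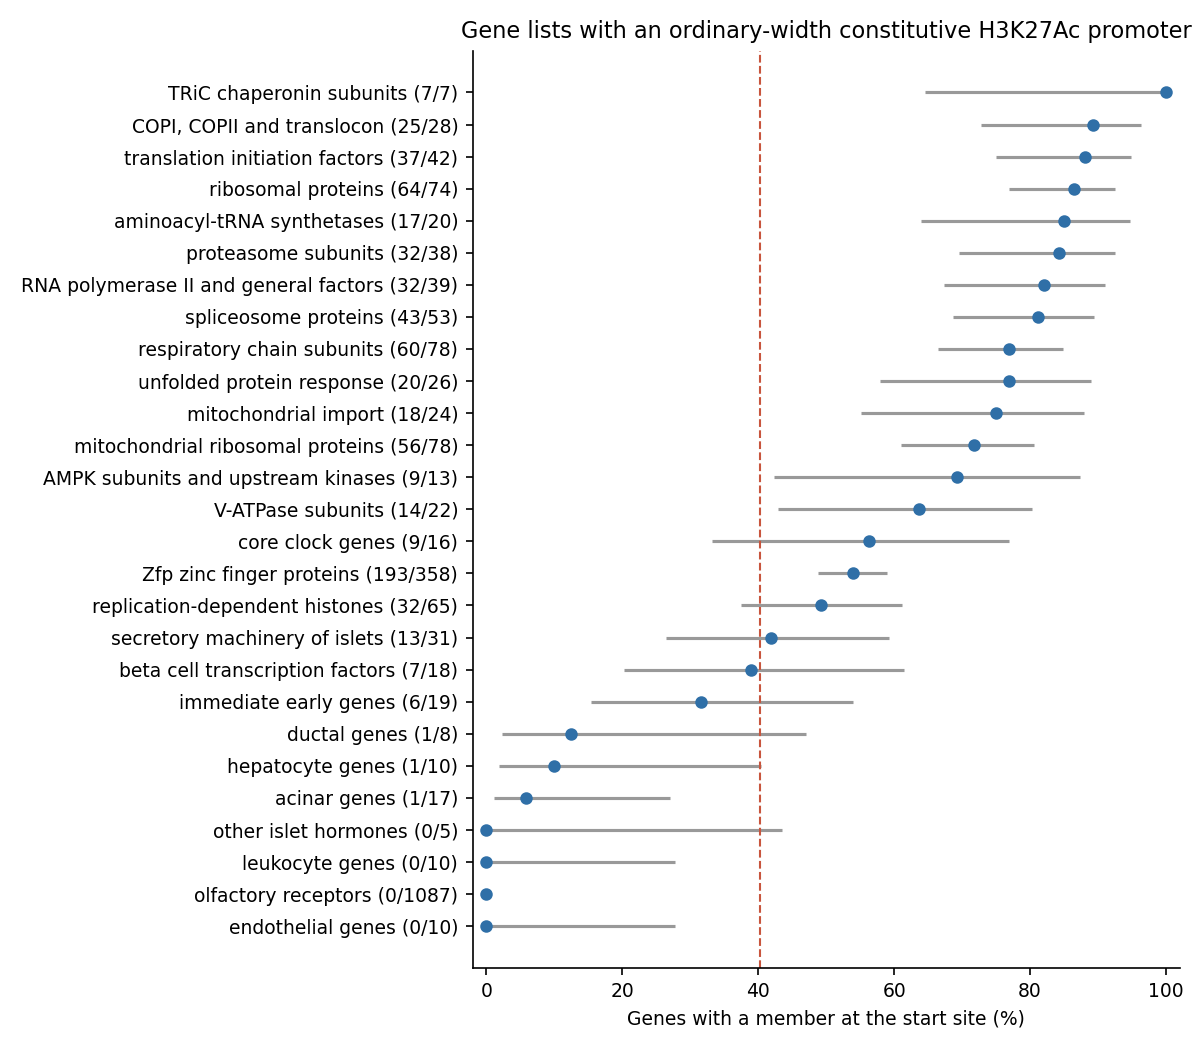
Share of the genes of each list with an ordinary-width constitutive H3K27Ac promoter at the start site (x axis, %), with the number of genes beside each list name. Points are shares, bars 95% Wilson intervals, and the dashed line marks the 40.2% of all protein-coding genes. Housekeeping lists lie at 63.6% or above, islet identity lists near the line, and lists of other cell types at 12.5% or below.

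Genes of islet identity were divided between ordinary and wide promoters. Of 18 beta cell transcription factors, 7 had an ordinary-width promoter, 9 a wide one and Nkx6-1 one with both marks. The ordinary-width set was Isl1, Nkx2-2, Foxo1, Mafa, Hnf4a, Rfx6 and Mnx1, whereas Pdx1 (7007 bp), Pax6 (17655 bp) and Neurod1 (3319 bp) were in the wide class. These 7 regions were long within their own class, with a median of 2295 bp against 1328 bp over all genes with an ordinary-width promoter. Mafa, a late activator of insulin transcription, spanned 2925 bp and Nkx2-2 spanned 2736 bp, both near the limit of 3000 bp.

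Of 31 genes of stimulus-secretion coupling and secretory granules, 13 had an ordinary-width promoter. They include Pcsk1 and Cpe, which process proinsulin, the granule proteins Chgb, Scg3, Scg5, Ptprn and Ptprn2, the exocytosis proteins Snap25, Stx1a and Rab27a, and the peptide Ucn3. Another 7 were wide, among them both subunits of the ATP-sensitive potassium channel, Abcc8 (7795 bp) and Kcnj11 (7671 bp), and the glucose transporter Slc2a2 (6483 bp). Glp1r had a promoter with both marks, and 4 genes, such as Slc30a8, had a peak in only some diets. The other 6, among them Iapp and G6pc2, had no H3K27Ac peak at the start. CpG-rich starts made up 53.8% of the 13, against 87.1% of all genes with an ordinary-width promoter.

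Ins2, 1 of the 2 mouse insulin genes, was absent at the 5′ end of its gene record, which lies far upstream of the region described next. When every protein-coding transcript start was used, a region of 2630 bp at chr7:142678176-142680805 qualified, with fold enrichments of 2.65, 2.62 and 2.60 in RD, HFD and HFD-O304. Ins1 had a peak at its start in only some diets. St18, Cacna1d and Strada likewise gained a qualifying region only at another transcript start. With that definition the counts became 8 of 18 for the transcription factors, 15 of 31 for the secretory genes and 69 of 74 for ribosomal proteins, beside 42.5% of all genes.

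Markers of other cells were nearly absent from this class. None of 10 leukocyte genes, 10 endothelial genes, 5 hormones of other islet cells (Gcg, Sst, Ppy, Pyy and Ghrl) or 1087 olfactory receptors had an ordinary-width promoter. A single gene each did among 17 acinar genes (Bhlha15), 8 ductal genes (Krt7) and 10 hepatocyte genes (Ttr), and those 3 had fold enrichments between 2.27 and 3.03. Of the 17 acinar genes, which serve digestive enzyme secretion, 15 had no H3K27Ac peak at the start in any diet. By contrast, 16 of the 18 beta cell transcription factors had a shared promoter without H3K27Me3, ordinary or wide. The glucagon (Gcg) and somatostatin (Sst) genes of other islet cells had no peak at the start in any diet. The same held for 6 of the 31 secretory genes, so absence of a peak does not by itself mark another cell type.

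Genes that handle unfolded proteins in the ER had an acetylated start without exception. Of 26 gene records in this list, 20 had an ordinary-width promoter and 6 a wide one. The wide ones were Xbp1, Atf4, Hspa5, Syvn1 and the 2 records of Ddit3. The ordinary-width ones include the sensors of the response, Ern1, Eif2ak3, Atf6 and Atf6b, and the chaperones and folding enzymes Calr, Canx, Hsp90b1, Pdia3, Pdia4 and Pdia6. AMPK subunits and their upstream kinases had an ordinary-width promoter at 9 of 13 genes and a wide one at Stk11 and Prkag2. Core clock genes were split into 9 ordinary-width promoters, such as Clock and Arntl, and 7 wide ones, such as Per1 (7350 bp) and Per2 (6792 bp). Immediate early genes, which respond to stimuli within minutes, leaned the other way with 6 ordinary-width and 10 wide promoters.

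Ordinary-width promoters were compact and moderately enriched. The median joined length was 1305 bp, and 5% to 95% of them spanned 582 to 2530 bp. At the width limit, Klhl28/Togaram1 (2995 bp) and Fbxl15/Psd (2993 bp) fell just inside, whereas Mepce/Zcwpw1 (3000 bp), Tesk1 (3003 bp) and Dpf2 (3006 bp) fell just outside. Fold enrichments of those 5 overlapped, at 3.25 to 3.68 inside and 3.06 to 4.02 outside. In RD the median fold enrichment was 3.003 with 90% of regions between 2.44 and 4.01. The median was 3.23 in HFD and 3.22 in HFD-O304. Among shared regions under 3000 bp away from start sites it was lower, at 2.64, 2.70 and 2.75.

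The 10 regions of highest mean fold enrichment belonged to genes of varied cellular roles. Slc25a3 led with 5.59 in RD and 6.61 in HFD, with the HFD-O304 value between them. Clk1, a kinase that phosphorylates splicing factors, had 5.95, 5.60 and 5.48. Top1, the type I topoisomerase, had 5.14, 6.06 and 5.58. Saraf, an inhibitor of store-operated calcium entry, followed with 4.99, 5.69 and 5.61. A region of 917 bp shared by Arcn1, the delta subunit of the COPI coat, and the divergent gene Ift46 had 5.48, 5.55 and 5.04. The remaining 5 lay at Slc35e2, Hist4h4, Vps37a, Uhrf1bp1l and Pink1, the mitochondrial quality control kinase, with values from 4.69 to 5.73.

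At the other end, the 5 regions of lowest mean fold enrichment were at Siah3, Ctnnd1, Hcar1, Heatr1 and Cdkn2a, with values between 2.18 and 2.41 that sat next to the lowest folds listed. Cdkn2a, which encodes p16 and p19 and restrains beta cell proliferation, had 2.41, 2.19 and 2.30 in RD, HFD and HFD-O304.

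Lists differed in strength among themselves as well. The median mean fold enrichment was 3.15 over all genes with an ordinary-width promoter. It was 3.82 for TRiC subunits, 3.76 for core clock genes, 3.59 for translation initiation factors, 3.57 for the unfolded protein response and 3.49 for the vesicle coats and translocon. Beta cell transcription factors (3.03) and secretory machinery (2.83) lay below the median of all. Eif5a, the hypusinated translation factor, had 4.24, 5.23 and 5.11 in RD, HFD and HFD-O304. Rfx6, a factor of endocrine development, had 2.83, 2.81 and 2.77. Median lengths were 1570 bp for ribosomal protein genes, 972 bp for proteasome subunits and 992 bp for mitochondrial ribosomal proteins.

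Acetylation reached further on the transcribed side of the start than upstream of it. Among 6227 ordinary-width promoters with a single start, 86.4% (85.6 to 87.3) reached further downstream than upstream. The median reach was 357 bp upstream and 870 bp downstream. Coverage by peaks was greatest 250 bp downstream in RD (90.3% of starts) and 300 bp downstream in HFD (94.3%) and HFD-O304 (93.8%). At the start itself it was 62.1%, 73.0% and 70.1% in RD, HFD and HFD-O304. In 17.5% of these promoters the joined region lay wholly downstream of the annotated start, and in 0.353% wholly upstream. Over all start sites of the class, 77.7% had a region reaching further downstream, beside 70.9% for wide promoters and 75.1% for those with both marks.

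The 5′ end of a gene record is its outermost start, which bears on this measure. In 53.3% of the 1087 regions wholly downstream, another protein-coding transcript start of the same gene lay inside the region. Measured from the transcript start nearest to the middle of the region, 75.4% reached further downstream, and among 2806 genes whose transcript starts all lay within 100 bp 84.7% did. The direction was the same by all 3 measures.

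Divergent gene pairs have another arrangement of starts. In 580 ordinary-width promoters (7.97%) 2 genes started within 1000 bp of each other on opposite strands. Of their start sites, 37.4% (34.7 to 40.2) had a region reaching further downstream than upstream. The 2 starts of a pair point away from each other, so both cannot reach further downstream in the same region. This share is therefore limited by the arrangement of the starts and is not comparable with that of single starts. The median reach was 798 bp upstream, over the partner gene, and 641 bp downstream. Coverage showed a peak on either side of the start, with 82.6% to 88.4% at the start itself. The share of divergent starts was 37.5% among the histone genes in this class and 28.3% among respiratory chain subunits, against 14.2% over all genes with an ordinary-width promoter.

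**Figure D2:**
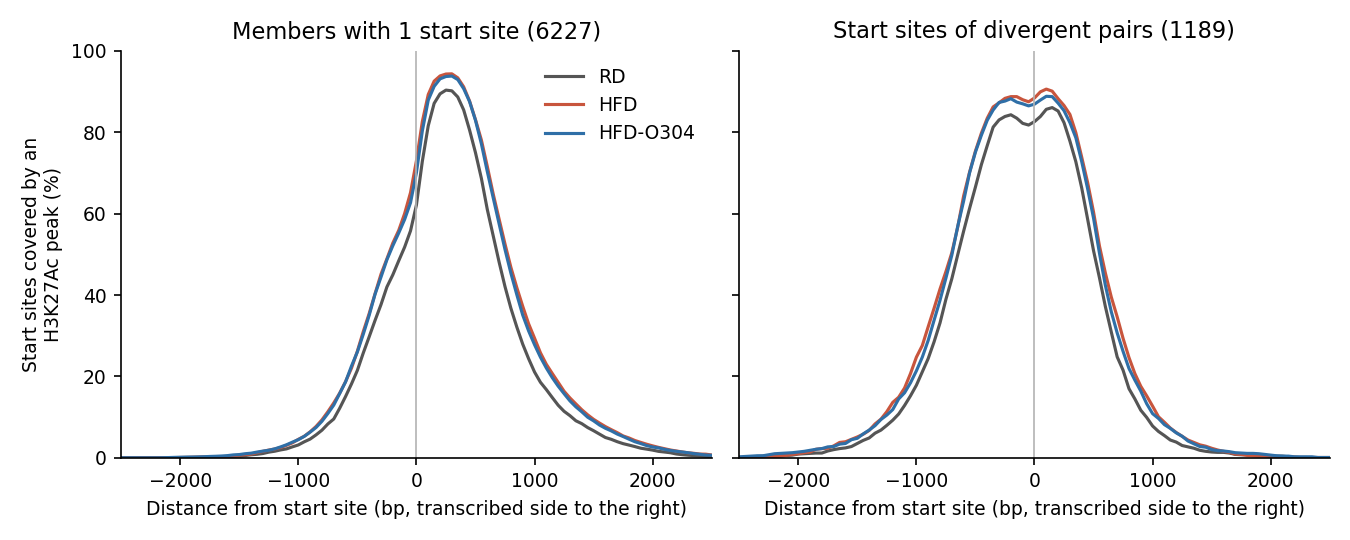
Share of start sites covered by an H3K27Ac peak (y axis, %) at each distance from the start site (x axis, bp, transcribed side to the right) in RD, HFD and HFD-O304, for ordinary-width promoters with 1 start (left) and for both starts of divergent pairs (right). With 1 start the curves rise to 90.3% to 94.3% at 250 to 300 bp downstream and fall off sooner upstream, whereas divergent pairs are covered on both sides, and RD lies below both HFD curves over most of the plotted range.

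Start sites in this class were CpG-rich. A start was called CpG-rich when a window of 500 bp within 1000 bp of it had a GC content of at least 55% and an observed over expected CpG ratio of at least 0.75. By this measure 87.1% (86.3 to 87.8) of the 8369 genes had a CpG-rich start. The share was 78.8% (75.2 to 82.0) for wide promoters, 74.5% (70.3 to 78.2) for those with both marks, 59.9% for genes with a peak in only some diets and 11.9% for those with no peak. Conversely, 70.2% of all 10385 CpG-rich starts had an ordinary-width promoter, against 10.4% of the other 10422. A stricter measure asked the whole window of 1000 bp, 500 bp either side of the start, to meet the same limits. By that measure the shares were 50.0% for ordinary-width promoters, 41.7% for wide ones and 3.49% without a peak, in the same order. Among starts without a repeat-masked base they were 89.6% for ordinary-width promoters, 83.98% for wide ones and 88.0% for those with both marks, so the gap to the last class was smaller there.

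Motifs were counted as exact letters on both strands in the 300 bases from 250 before to 50 after each start, beside the same window of all 20807 genes. GC boxes were present at 67.1% (66.1 to 68.1) of genes with an ordinary-width promoter and at 43.7% of all genes. The ETS site was present at 19.9% (19.1 to 20.8) against 11.0%, and among the 10 motifs it had the largest gap in percentage points to the wide promoters, of which 10.1% (7.81 to 12.9) held it. NRF1 sites were found at 6.17% against 3.45%, YY1 sites at 3.27% against 1.70% and ZBTB33 sites at 1.89% against 0.884%. The cAMP response element, bound by CREB proteins, was found at 4.09% against 2.43% and the E-box, bound by USF and by the clock factors, at 10.9% against 7.82%.

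Other motifs were not more frequent. The CCAAT box (CCAAT), bound by NF-Y, was found at 37.5% (36.5 to 38.6), beside 38.6% of all genes. The letters TATAAA of the TATA box occurred at 5.84% (5.36 to 6.37) of ordinary-width promoters, at 12.7% of all genes and at 20.1% of genes with no peak. The forkhead site TGTTTAC, bound by FOXA and FOXO proteins, occurred at 2.19% against 3.07%. These motifs differ in their own base content, and their part in the differences beyond GC content was not tested. A match is a run of letters and was not examined for binding.

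**Figure D3:**
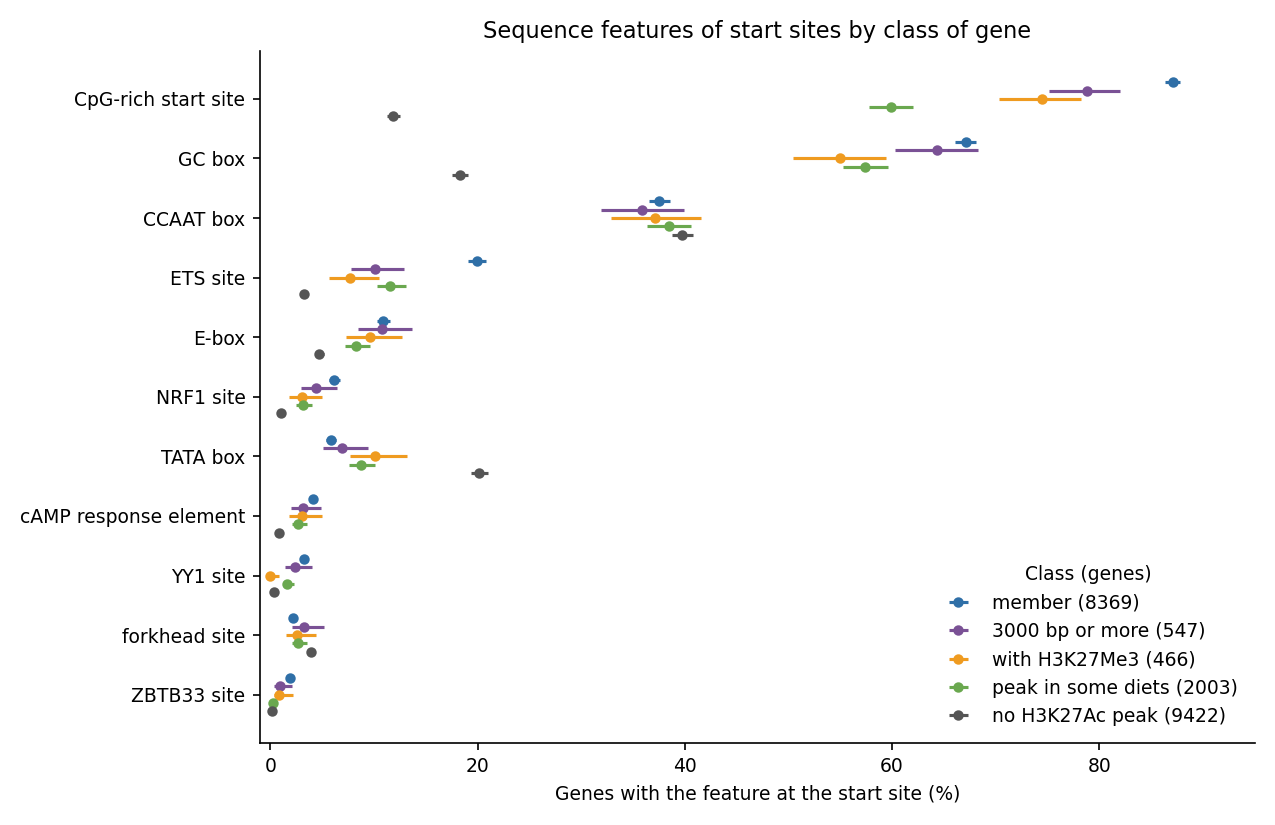
Share of genes (x axis, %) whose start site holds each sequence feature (y axis), for genes with an ordinary-width promoter (member) and 4 other classes of gene, with the number of genes in the legend. Points are shares and bars 95% Wilson intervals. CpG-rich starts, GC boxes and ETS sites are most frequent at ordinary-width promoters (87.1%, 67.1% and 19.9%), and the TATA box is most frequent at genes without an H3K27Ac peak (20.1%).

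Read the other way, genes with certain motifs were mostly in this class. Of 184 genes with a ZBTB33 site, 158 had an ordinary-width promoter (85.9%), as had 77.4% of those with a YY1 site, 72.7% with an ETS site, 71.9% with an NRF1 site and 67.7% with a cAMP response element, beside the 40.2% of all genes. Only 18.5% of genes with TATAAA did. Within the class, fold enrichment differed little by motif. The median was 3.45 with a ZBTB33 site against 3.15 without and 3.37 with a cAMP response element against 3.15, whereas it was 3.14 against 3.16 for the CCAAT box. GC content itself moved with strength and length. From the 25% of genes of lowest GC content to the 25% of highest, the median mean fold enrichment went from 3.07 to 3.26 and the median length from 1144.5 bp to 1537 bp.

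Between diets, ordinary-width promoters kept their relative strength. Across regions, the fold enrichment of HFD and RD had a Pearson r of 0.77, that of HFD-O304 and RD 0.75 and that of HFD-O304 and HFD 0.82, over 7279 regions that share their base composition and are not replicates. The levels were slightly higher on both high-fat diets. The median log2 ratio of fold enrichment was 0.087 for HFD over RD (1.06-fold), 0.088 for HFD-O304 over RD (1.06-fold) and 0.0031 for HFD-O304 over HFD (1.00-fold). Over all 12950 shared regions, which include the ordinary-width promoters, these medians were 0.053, 0.061 and 0.0096. Wide promoters had 0.048, 0.057 and 0.0037, and the weaker shared regions away from start sites had 0.025, 0.042 and 0.020. RD had the lowest of the 3 values in 58.4% of ordinary-width promoters and in 51.0% of all shared regions. The HFD list was also the deepest, RD and HFD-O304 were of nearly equal depth, and the part of depth in these shifts was not tested. Both ratios over RD share the RD list.

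Larger differences were uncommon. A promoter was counted as higher when its fold enrichment was at least 25% above that of the other diet, and as lower when it was at least 20% below, which is the same ratio inverted. From RD to HFD, 605 ordinary-width promoters were higher (8.31%), beside 5.7% of all shared regions, and 28 were lower (0.385%), beside 1.1%. From RD to HFD-O304, 584 were higher (8.02%), beside 5.67%, and 33 lower (0.453%), beside 0.942%. From HFD to HFD-O304, 97 were higher (1.33%), beside 1.41%, and 113 lower (1.55%), beside 1.4%, so that comparison gave shares near those of all shared regions in both directions. When the ratios were centred on the median of all shared regions, 345 were higher (4.74%, beside 3.17% of all shared regions) and 79 lower (1.09%, beside 2.19%) from RD to HFD. From RD to HFD-O304, 310 were then higher (4.26%, beside 2.90%) and 101 lower (1.39%, beside 2.19%). A fragment count estimated from coverage and length gave medians of 135, 194 and 170 fragments per region for RD, HFD and HFD-O304, and a median counting error of a log2 ratio of 0.16 for HFD over RD. The limit of 25% is about 2 such errors, and the replicate error is unknown.

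**Figure D4:**
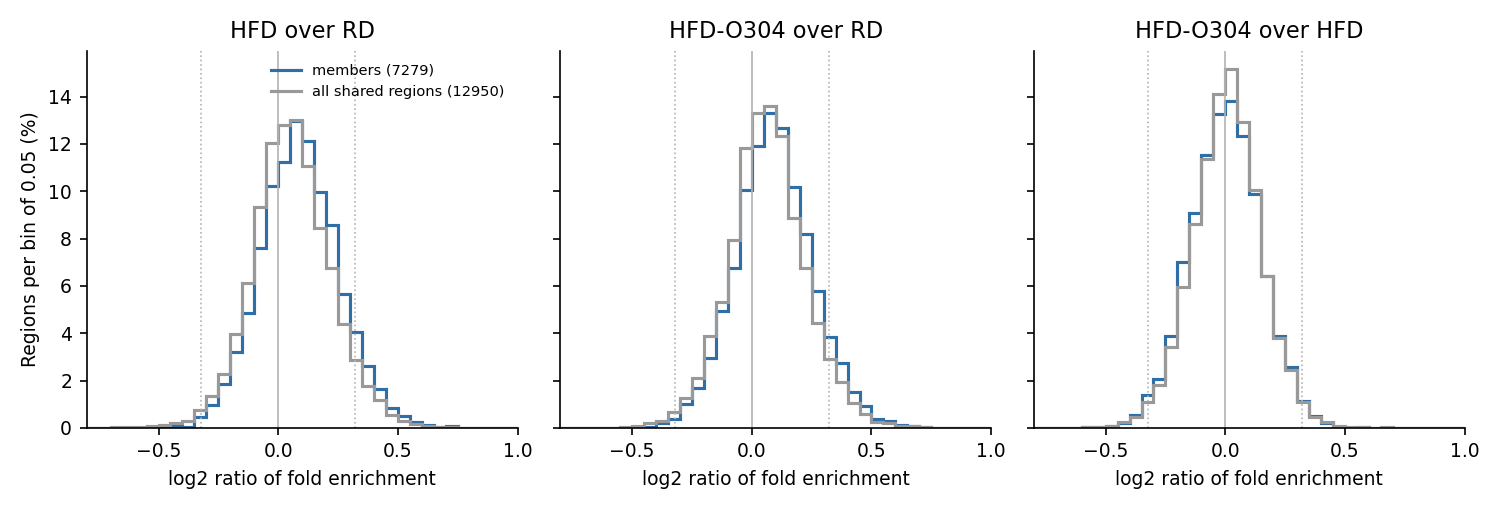
Distribution of the log2 ratio of fold enrichment (x axis) for HFD over RD, HFD-O304 over RD and HFD-O304 over HFD, as the share of regions per bin of 0.05 (y axis, %), for ordinary-width promoters (members) and all shared regions. The solid vertical line marks equality and dotted lines a value 25% higher and 20% lower. Ordinary-width promoters lie to the right of all shared regions, which include them, in both ratios over RD (medians 0.087 and 0.088). Both distributions are centred near 0 for HFD-O304 over HFD.

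The shift differed by strength and GC content. In the 25% of ordinary-width promoters with the lowest mean fold enrichment the median log2 ratio of HFD over RD was 0.027, and in the highest 25% it was 0.124. For HFD-O304 over RD the 4 groups of rising mean fold enrichment gave 0.059, 0.092, 0.105 and 0.098. The mean includes the HFD and HFD-O304 values, so a higher value in either also moves a promoter into a higher group. By GC content of the start it went from 0.064 in the lowest 25% to 0.115 in the highest. For HFD-O304 over RD the same groups of GC content gave 0.075 and 0.109. Peaks were also longer on the high-fat diets. Peaks of RD, HFD and HFD-O304 had median lengths of 923, 1105 and 1086 bp, with median length ratios of 1.13, 1.11 and 0.98 for the 3 comparisons. Over all shared regions these ratios were 1.14, 1.10 and 0.98, so the longer peaks were not particular to ordinary-width promoters.

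The ordinary-width promoters with the most extreme ratios are given with the counting error of the log2 ratio alone. Kpna3, which encodes an importin alpha, had a fold enrichment of 2.35, 4.32 and 4.68 in RD, HFD and HFD-O304. Its log2 ratio was 0.88 ± 0.20 for HFD over RD. Pwwp2a, a chromatin reader, had 2.71, 4.46 and 4.43, and Gsk3a, a glycogen synthase kinase, had 2.56, 3.72 and 4.37. In these 3 promoters RD stood below both high-fat lists. They were picked for high ratios that share the RD value, so this order partly follows from the choice. Myef2 (3.01, 4.95 and 4.02) and 4931406P16Rik (3.17, 5.29 and 4.77) had the same order with the highest value in HFD.

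RD had the highest of the 3 values in 15.6% of ordinary-width promoters, and the lowest ratios over RD were smaller in size than the highest. Cdk2, a cyclin-dependent kinase of S phase entry, had 3.19, 2.28 and 2.78 in RD, HFD and HFD-O304, a log2 ratio of -0.48 ± 0.23 for HFD over RD. Tctex1d2 (3.24, 2.32 and 2.55), Rngtt, the mRNA capping enzyme (3.74, 2.80 and 3.35), and Rhbdl2 (3.03, 2.28 and 2.81) were also lowest in HFD. Pbrm1, a subunit of the PBAF remodelling complex, had 3.30, 2.70 and 2.41, and Cep295 had 3.82, 3.23 and 2.66, so both were lowest in HFD-O304.

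The most extreme ratios between the 2 high-fat lists included promoters that also differed between HFD and RD. Choosing by this ratio favours extreme HFD values, so the order of HFD against RD partly follows from the choice. Cdc25a, the phosphatase that activates cyclin-dependent kinases, had 2.70, 4.21 and 2.83 in RD, HFD and HFD-O304, a log2 ratio of -0.57 ± 0.19 for HFD-O304 over HFD. Etnk1, an ethanolamine kinase, had 3.57, 5.61 and 3.95, with -0.50 ± 0.11. Vamp1 (2.87, 3.98 and 2.71) and Atp5k, a subunit of the ATP synthase (3.12, 4.13 and 2.87), showed the same order, high in HFD and near the RD value in HFD-O304. In the opposite direction, Htatip2 had 2.87, 2.34 and 3.68, with 0.66 ± 0.22 for HFD-O304 over HFD. Cog7, a Golgi tethering protein (2.84, 2.45 and 3.71), Ppp1r16a (2.66, 2.35 and 3.51) and Dip2a (2.78, 2.69 and 3.96) were likewise highest in HFD-O304.

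Among the islet genes, ratios were mostly small. No region of the 7 beta cell transcription factors passed the limit of 25% in any comparison, a count that the share of all ordinary-width promoters (8.31% higher from RD to HFD) would also give for so few genes. Of the 13 secretory genes, 1 was past it for HFD-O304 over RD. Another, Cpe, passed it in both comparisons with HFD, with 3.38, 4.75 and 3.41 in RD, HFD and HFD-O304. Its peaks measured 690, 560 and 1409 bp in that order, and the part of peak length in these ratios was not tested. Chgb had 3.71, 3.96 and 4.57. Mafa had 2.99, 2.78 and 3.33, and the values of Pcsk1 (2.64, 2.44 and 2.61) and Rab27a (2.83, 2.86 and 2.81) differed by less than their counting error.

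In the unfolded protein response, the median log2 ratio of the 20 ordinary-width promoters was 0.12 for HFD over RD, against 0.084 over all genes of the class. It was 0.086 for HFD-O304 over RD, against 0.086, and -0.042 for HFD-O304 over HFD, against 0.0024. The median mean fold enrichment of this list, 3.57, falls among the strongest 25% of ordinary-width promoters. Their medians for the 3 comparisons were 0.124, 0.098 and -0.019. That group has a median mean fold enrichment of 3.82 and a lower edge of 3.54, so it is not matched to this list. It was also sorted by a mean that includes the HFD value. The part of strength in the ratios of this list was not tested. Edem1, which sends misfolded glycoproteins to degradation, had 2.87, 3.66 and 4.21 in RD, HFD and HFD-O304 and passed 25% in both ratios over RD. Eif2ak3, the sensor kinase PERK, had 3.68, 4.44 and 4.73 and passed it for HFD-O304 over RD, whereas Ern1, the sensor IRE1, had 3.17, 3.82 and 3.70 and passed it in no comparison. Dnajc3, an inhibitor of PERK and co-chaperone of BiP, went the other way with 4.42, 3.88 and 3.31, past the limit for HFD-O304 over RD, and Calr had 2.91, 2.48 and 2.54. Atf6 had 2.78, 2.64 and 3.42 and passed the limit of 25% only for HFD-O304 over HFD, with a log2 ratio of 0.37 ± 0.22.

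AMPK genes are of interest because O304 is given as an AMPK activator. Prkaa1, a catalytic subunit, had 3.64, 3.91 and 3.16 in RD, HFD and HFD-O304. Prkaa2, the other catalytic subunit, had 2.58, 2.96 and 3.30 and was past 25% for HFD-O304 over RD. Prkag1, a regulatory subunit that binds AMP, had 3.39, 2.81 and 3.49. Cab39, a scaffold of the upstream kinase LKB1, had the largest ratio of the list, with 3.03, 4.38 and 4.08 and a log2 ratio of 0.53 ± 0.15 for HFD over RD. The 9 promoters had no common order of the 3 diets. Of the core clock genes, Per3 passed 25% for HFD-O304 over HFD, with 4.42, 4.05 and 5.47 in RD, HFD and HFD-O304. The Per3 peaks measured 745, 1480 and 750 bp in that order. Cry1 (4.42, 4.86 and 4.96) and Clock (4.28, 4.76 and 4.23) did not pass 25% in any comparison.

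**Figure D5:**
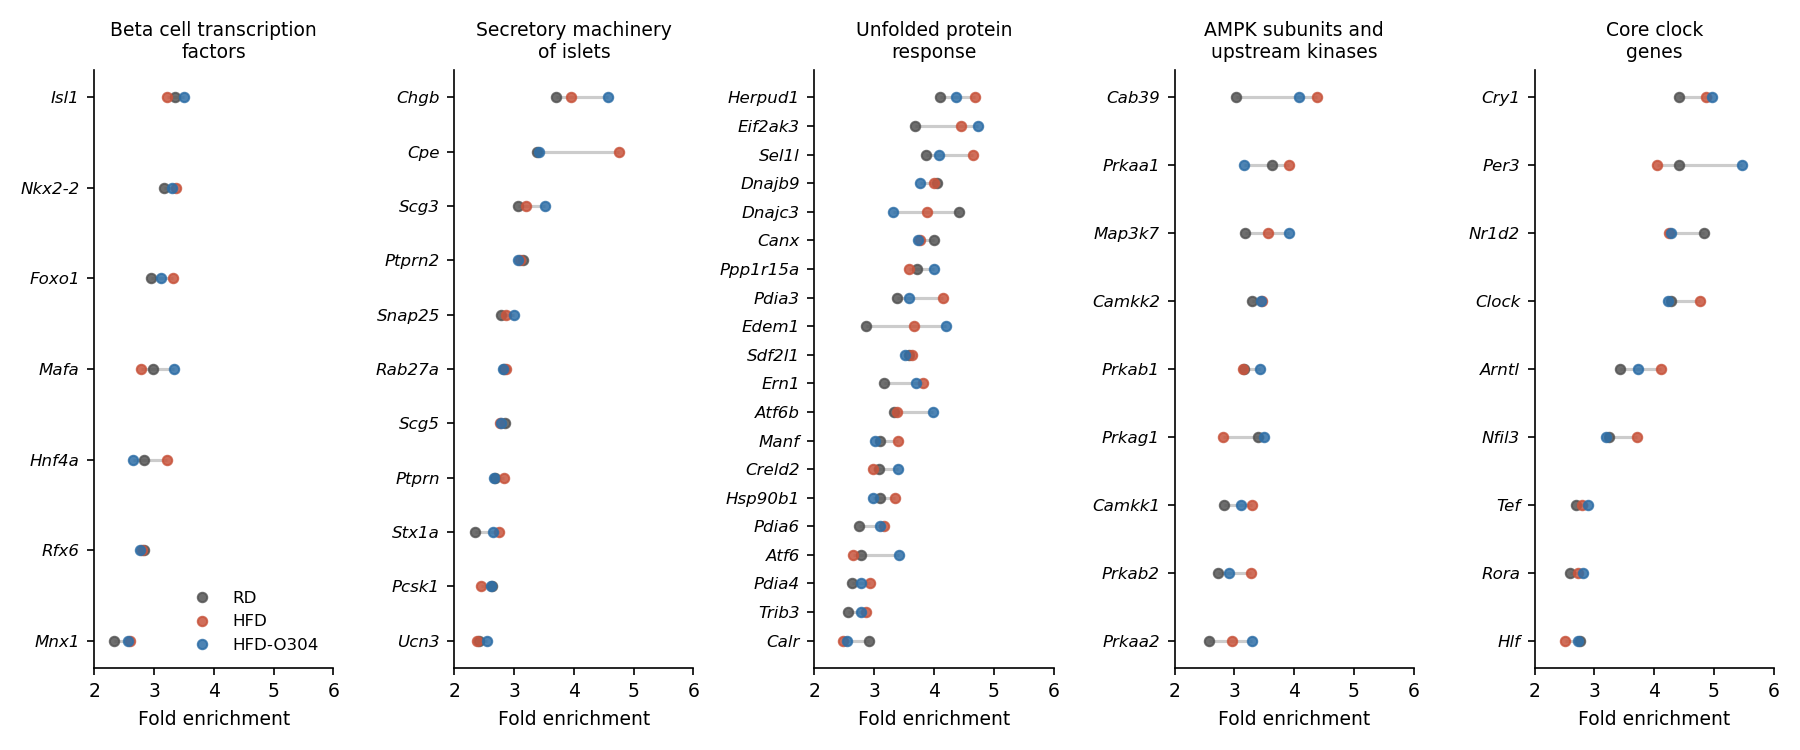
Fold enrichment of H3K27Ac (x axis, deposited values, 1 list per diet) at ordinary-width promoters of genes in 5 lists (genes on the y axis, ordered by mean), in RD, HFD and HFD-O304. Each point is 1 merged list with no replicate error, averaged over that list's own peak, and grey lines join the lowest and highest value. Most genes span a narrow range, with wider ones at Cpe (3.38 to 4.75), Edem1 (2.87 to 4.21), Cab39 (3.03 to 4.38) and Per3 (4.05 to 5.47).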

How the data were processed

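H3K27Ac and H3K27Me3 ChIP-seq of CBA mouse islets comprised 15 samples, with 2 replicates per mark and diet and 3 inputs. The authors aligned paired reads with bowtie2, merged replicate alignments and called broad peaks with MACS 2.1.2 without a control and without local background. Per the file headers the q-value cutoff was 0.01. The methods text gives more than 1 cutoff, and the headers were followed. The deposited pileup is the mean coverage signal of a peak, the deposited fold is the ratio of pileup plus 1 to background plus 1, and the −log10 q of each peak, as deposited, refers to that same background. Inputs were not subtracted and are not analysed here.

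Peaks were joined with Python 3.11.15, pandas 2.3.3 and NumPy 2.4.6. A region's value in a diet was the length-weighted mean fold of its peaks. Most regions held 1 peak per diet, and 10, 5 and 8 ordinary-width promoters held more in RD, HFD and HFD-O304. Start sites were 5′ ends of GENCODE protein-coding gene records. Sequence was read from the C57BL/6J reference of GRCm38 with pysam 0.24.0. Counting errors used fragments estimated as coverage times length over the fragment length in the header. Joining and counting were tested on simulated data. No test between diets was possible with 1 list per group.

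The regions, the 27 gene lists and the comparisons were chosen with earlier results of these data known. Genes named were the 3 of highest mean fold in each list, the 10 highest and 5 lowest regions, the 4 highest and 4 lowest ratios per pair of diets, those at the width limit, and all genes with an ordinary-width promoter in 5 islet-related lists. Some genes that these rules select are not reported here, though they stay in the counts. Alternatives were other start windows, start definitions, q cutoffs, overlaps, list sizes, width limits, summaries and scalings.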

Additional observations from a re-analysis of the deposited data

How the results depend on the processing

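No paired analysis was possible because replicates were merged before peak calling, which also leaves no single replicate to omit. Over 29 results, 81 alternative values were computed, of which 49 stayed within 1.5 times a count or within the 95% interval of a share or median, 32 moved and 0 changed direction beyond it. Transcript starts and the checks of outermost starts and repeats were chosen after seeing the data. The number of ordinary-width promoters was 7279 and fell to 4648, and their genes from 8369 to 5379, when every peak needed a −log10 q of at least 5. The other alternatives gave 6143 to 8023 regions, the highest with every transcript start.

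Median log2 ratios for HFD over RD moved to 0.070 with pileup scaled to kept fragments and 0.034 after centring on all shared regions. For HFD-O304 over RD centring gave 0.027, and for HFD-O304 over HFD pileup gave 0.022 and centring -0.0064, so the sign of that near-zero median depends on the scaling. Promoters at least 25% higher or 20% lower after centring numbered 345 higher and 79 lower for HFD over RD, and 310 higher and 101 lower for HFD-O304 over RD. With pileup there were 45 lower for HFD over RD and 154 higher for HFD-O304 over HFD. At 1.5-fold 24 were higher for HFD over RD, 27 for HFD-O304 over RD and 2 for HFD-O304 over HFD, with 0 lower in each. Those are 0.330%, 0.371% and 0.0275% of ordinary-width promoters, beside 0.193%, 0.224% and 0.0232% of all shared regions, of which 8, 2 and 4 were lower.

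The CpG-rich share became 50.0% with the whole window and 89.6% among starts without a repeat-masked base, where promoters with both marks had 88.0% and wide ones 83.98%. From 150 before to 50 after the start, shares were 62.6% for the GC box, 30.7% for CCAAT, 17.7% for ETS, 5.44% for NRF1, 8.65% for the E-box, 2.86% for YY1, 2.99% for TATAAA and 1.21% for the forkhead site. In that window of all genes they were 40.4%, 30.3%, 9.67%, 3.01%, 6.08%, 1.46%, 8.53% and 1.84%. The downstream share was 77.7% over all start sites, 86.4% with a single gene start, 84.7% with close transcript starts and 75.4% from the nearest transcript start. Depth limits single promoters, since the median counting error of a log2 ratio was 0.15 to 0.17.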
